A study of Mus musculus with 8 samples.

Results

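Type 2 conventional dendritic cells (cDC2) made up 210 of the 24838 cells kept from mouse lung adenocarcinomas, or 0.845%. They were chosen by their transcripts: at least 3 of Cd209a, Mgl2, Clec10a, Flt3 and H2-DMb2 were detected in each cell. Cells with a count of Xcr1, Clec9a, Cd3e or Cd79a were left out, as were cells with more than 2 counts of C1qa, C1qb and C1qc together. Cells with 3 or more of the 5 maturation genes Ccr7, Fscn1, Ccl22, Cacnb3 and Nudt17, or with 4 or more of the 5 alveolar macrophage genes Ear2, Fabp1, Krt79, Plet1 and Car4, were left out too. These 22 genes chose the cells, so their levels are given below as a description.

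The tumours grew in KPC mice, in which a lentivirus given into the trachea starts lung adenocarcinomas. CRISPR activation was aimed at tumour cells, beginning when tumours were initiated, with guides called dRNA in the labels. The guides pointed at Malat1, a long nuclear RNA, in the group labelled mA1, and at Tomato in the control group labelled Con. The largest tumours were taken 16 weeks after initiation, 4 per group, and both groups carried the virus, the activation system and a guide. Age, sex and strain were not stated for the mice. The dendritic cells are host cells that came into such tumours, so they were not the cells in which activation was aimed. Each group had 2 libraries, and each library held cells marked with 2 hashtags. A hashtag is an antibody with a short DNA barcode, here against CD45 and MHC class I, and cells of 1 library that carried the same hashtag were treated as 1 tumour. Whether different hashtags mark different mice is not stated, so the p-values below may reflect no more than variation among these samples, which may be technical. The barcodes that told the tumours of a library apart were, 5′ to 3′:
Hashtag 1: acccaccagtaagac
Hashtag 2: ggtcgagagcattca

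Conventional dendritic cells arise from bone marrow precursors that need the receptor Flt3, and they divide into type 1 and type 2. Type 2 cells depend on the transcription factors Irf4 and Zeb2, carry Sirpa and Itgam (CD11b), and are known for taking up antigen and showing it on MHC class II to CD4 T cells. Type 1 cells depend on Irf8 and Batf3 and are known for cross-presentation to CD8 T cells. In lung, some cells of monocyte origin share transcripts with cDC2, so markers of monocytes and macrophages are given beside the results.

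Con library 1 held 52 of the cDC2 cells, Con library 2 held 72, mA1 library 1 held 57 and mA1 library 2 held 29. A median cDC2 cell had 12418 transcript counts (unique molecular identifiers, UMIs), 2987.5 genes and 3.01% mitochondrial UMIs. The library medians of UMIs ran from 10417 in Con library 1 to 15150 in mA1 library 2. Of the 210 cells, 204 carried exactly 1 hashtag and 4 carried both. The 4 with both were left out of the sums, which left 206 cells with 2652152 UMIs. No cDC2 cell shared its barcode with a kept cell of another library. Xist, the RNA that silences an X chromosome in females, was at 1040 UMIs per 1000000 (CPM) in the cDC2 cells of Con library 2 and at 0 in the other 3 libraries. Ddx3y, from the Y chromosome, was at 0 in Con library 2 and at 44.8 to 54.0 CPM in the others. So the cells of Con library 2 differ from the rest in sex as well as in library, and their part in the differences below cannot be told apart from it.

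The 5 choosing transcripts were not equally common. Cd209a, a C-type lectin of the DC-SIGN family, was detected in 94.3% of the cells. H2-DMb2 was detected in 85.7%, Mgl2 in 84.3%, Clec10a in 62.4% and Flt3 in 44.3%. Of the 210 cells, 96 had 3 of the 5, 79 had 4 and 35 had all 5. Con library 2 held 20 of the 35 cells with all 5. Cells just inside the threshold, with 3 markers, had a median of 10771 UMIs, and the 86 cells just outside it, with 2 markers, had 8264. Cd209a was at 782 CPM just inside and 433 CPM just outside, and Mgl2 at 1207 and 244 CPM. Flt3 was at 34.5 CPM inside and 41.6 CPM outside.

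Beyond the choosing genes, the cells carried most transcripts of the cDC2 list, and several transcripts of the type 1 list at lower levels than type 1 cells. They were set beside 164 type 1 cells, 158 mature dendritic cells and 987 macrophages with C1q. Type 1 cells had Xcr1, few alveolar macrophage genes and at least 3 of Xcr1, Clec9a, Irf8, Batf3, Naaa and Wdfy4 detected. High Irf8, Batf3, Naaa and Wdfy4 in type 1 cells is therefore partly set by that choice. All levels are CPM of the summed cells of each library, as mean ± SD over the 4 libraries. Classes that were cut by transcripts differ by construction, so no test was made. Levels are compared within a gene and not between genes.

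Irf4 was at 64.4 ± 15.4 CPM in cDC2 and 1.53 ± 1.14 CPM in type 1 cells. Irf8, which helped choose the type 1 cells, was reversed, at 79.3 ± 44.8 CPM against 1736 ± 114 CPM. Zeb2 was at 208 ± 26.7 CPM against 3.69 ± 3.34 CPM in type 1 cells. Sirpa, an inhibitory receptor for CD47, was at 98.3 ± 29.5 CPM against 2.39 ± 1.67 CPM, and Itgam at 108 ± 21.7 CPM against 2.87 ± 3.59 CPM. For each of these genes the 4 cDC2 libraries did not overlap the 4 libraries of type 1 cells. That is a description only, as the share of all genes that did so is not given here. Mature dendritic cells lay between cDC2 and type 1 cells for Irf4, at 34.7 ± 7.03 CPM, and had little Itgam, at 3.70 ± 3.13 CPM. Zbtb46, a factor of the conventional dendritic cell lineage that macrophages lack, was at 38.9 ± 7.69 CPM in cDC2 and 4.27 ± 1.96 CPM in the C1q macrophages.

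Of the 20 cDC2 genes fixed outside the choosing set, 18 were detected, meaning any UMI in the sums. By that measure all 11 macrophage and all 10 alveolar macrophage markers were detected too. The cDC2 list summed to 5713 CPM in cDC2, 2589 CPM in type 1 cells, 4995 CPM in mature cells and 3680 CPM in C1q macrophages. Clec4a4 and Tnfsf4 (OX40 ligand) had a UMI in 0 of 206 cells, which allows a share of up to 1.46%. Of the 11 type 1 markers 9 were detected, with Xcr1 and Clec9a at 0 by the rule. The list summed to 870 CPM against 5681 CPM in type 1 cells, which were chosen by some of its members. Batf3 and Cd24a were widespread, in 53.9% and 74.3% of cDC2 cells and 87.2% and 95.1% of type 1 cells. Batf3 helped choose the type 1 cells. Cadm1 and Snx22, used to choose neither class, were detected in 1.46% and 2.43% of cDC2 cells against 70.1% and 59.8% of type 1 cells. Wdfy4, a gene of cross-presentation that helped choose the type 1 cells, was at 199 ± 76.4 CPM in cDC2 against 541 ± 83.6 CPM there.

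**Figure D1:**
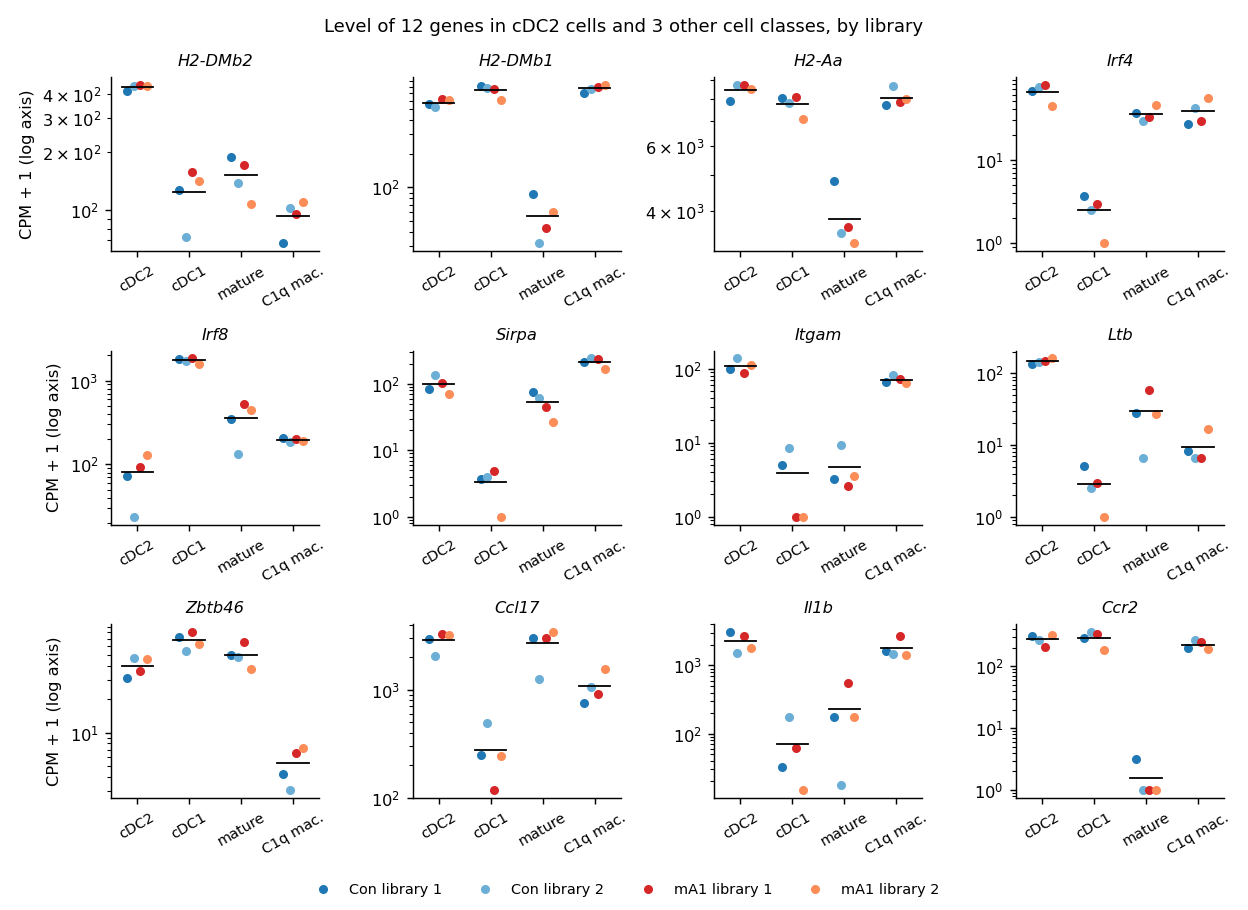
Level of 12 genes (CPM + 1, log axis) in cDC2 cells, type 1 cells, mature dendritic cells and C1q macrophages. Each point is the summed cells of 1 library and the line is the mean of 4 libraries. H2-DMb2, which helped choose the cDC2 cells, and Ltb are highest in cDC2. Irf8, which helped choose the type 1 cells, is highest in type 1 cells. H2-DMb1 is at similar levels in all classes but the mature cells.

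Some genes separated the cells from all 3 classes at once. No monocyte class was among the 3, and the rule used none of the 14 monocyte markers, so a difference from monocytes was not tested. The genes were named after the values were seen. They had the highest ratio to the highest other class, among those at 100 CPM or more and with 5 CPM added to both. Ms4a4c, a membrane protein gene of monocytes, was at 235 ± 43.3 CPM against at most 15.5 ± 13.1 CPM in another class. Ifitm1 and Ifitm3, antiviral membrane proteins, were at 463 ± 127 and 972 ± 80.3 CPM against at most 41.9 ± 70.7 and 206 ± 46.4 CPM. Plac8, a monocyte gene, was at 210 ± 31.5 CPM against at most 42.4 ± 12.98 CPM. Ltb (lymphotoxin beta, a ligand that shapes lymphoid tissue) was at 146 ± 10.4 CPM against at most 28.9 ± 21.3 CPM. Klrd1 (CD94) was at 309 ± 19.6 CPM against at most 72.0 ± 42.3 CPM. Ltb and Klrd1 varied little: their lowest libraries had 136 and 293 CPM, their highest 161 and 337 CPM.

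Antigen presentation on MHC class II was prominent. Cd74, the invariant chain, was at 27201 ± 1172 CPM, H2-Aa, H2-Ab1 and H2-Eb1, the chains of the class II molecules, at 8486 ± 392, 10819 ± 118 and 8831 ± 397 CPM. The macrophages with C1q had like levels of these chains, at 8077 ± 413, 10409 ± 417 and 9384 ± 180 CPM, and the mature cells had less, at 3804 ± 692, 2645 ± 579 and 4052 ± 745 CPM. Ciita, the activator of class II genes, was at 282 ± 49.0 CPM in cDC2, 243 ± 60.2 CPM in type 1 cells, 166 ± 28.8 CPM in C1q macrophages and 63.6 ± 26.9 CPM in mature cells. H2-Oa, a chain of the inhibitor of peptide loading, was at 185 ± 29.2 CPM in cDC2 and 28.3 ± 4.17 CPM in the macrophages.

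H2-DMb1 and H2-DMb2 are neighbouring copies that encode the beta chain of H2-DM, the loader of peptides on class II. H2-DMb2, a choosing gene, was at 433 ± 14.1 CPM in cDC2, 123 ± 37.1 CPM in type 1 cells, 150 ± 35.9 CPM in mature cells and 92.6 ± 18.5 CPM in macrophages. H2-DMb1, which the rule did not use, was at 574 ± 43.3, 741 ± 92.8, 54.9 ± 24.3 and 769 ± 53.0 CPM in the same order. The high H2-DMb2 in cDC2 is partly set by the choice of the cells. Among the other classes, mature cells had much less H2-DMb1 than type 1 cells and macrophages, but no less H2-DMb2. Because the copies are much alike, reads could be split between them in a way that is uncertain. Their promoters are shown since class II genes share a Y box, a site for the factor NF-Y, which was searched as the letters TGATTGG on both strands in the 250 bases before each start (RefSeq, GRCm38.p6). Capitals mark the match. The H2-DMb2 stretch is chr17:34145107-34145193 and the H2-DMb1 stretch chr17:34153078-34153164, both on the plus strand and 5′ to 3′:
H2-DMb2: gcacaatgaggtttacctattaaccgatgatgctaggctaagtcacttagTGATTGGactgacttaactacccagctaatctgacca
H2-DMb1: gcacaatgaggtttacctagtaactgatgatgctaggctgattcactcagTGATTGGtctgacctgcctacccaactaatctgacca
The stretches, aligned on the match without gaps, were identical at 77 of 87 bases (88.5%). Between the match and the annotated start lay 85 bases at H2-DMb2 and 56 at H2-DMb1. Of 10 genes of class II presentation with an entry, 6 held the letters: H2-Aa, H2-Eb1, H2-Oa, H2-Ob and the 2 shown. H2-DMa, Ctss, Lgmn and Ifi30 had no match. Of all 32851 promoter windows of that length, 7.23% held the letters. A match is a description of the letters, not of a bound site.

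By summed level, cytokines and chemokines set the cells apart from type 1 cells more than from macrophages. The 16 cytokines summed to 2772 CPM in cDC2, 343 CPM in type 1 cells and 2924 CPM in C1q macrophages. The 15 chemokines summed to 5972, 1057 and 8567 CPM in the same order. Il1b, the secreted inflammatory cytokine, was detected in 76.7% of cDC2 cells, at 3108 and 1512 CPM in the Con libraries and 2722 and 1802 CPM in the mA1 libraries. Type 1 cells had 69.3 ± 71.2 CPM of Il1b and the macrophages 1807 ± 608 CPM. Ccl17, a chemokine that draws Ccr4-bearing T cells, was at 2865 ± 555 CPM in cDC2, 273 ± 155 CPM in type 1 cells and 2674 ± 968 CPM in mature cells. Ccl4 was at 996 ± 111 CPM in cDC2 and 87.4 ± 59.3 CPM in type 1 cells. Tnfsf9 (4-1BB ligand) was at 72.2 ± 11.3 CPM against 8.80 ± 4.57 CPM in type 1 cells. Il12b, a cytokine subunit that polarises T cells, was nearly absent, with a UMI in 0.971% of the cells against 25.9% of mature cells.

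Receptors had no single pattern. Ccr2, the receptor that brings monocytes and dendritic cell precursors to tissue, was at 275 ± 54.0 CPM in cDC2 and 289 ± 75.7 CPM in type 1 cells, and at 0.556 ± 1.11 CPM in mature cells. Ccr1 was at 129 ± 21.6 CPM against 0.675 ± 1.35 CPM in type 1 cells. Csf1r, the receptor for macrophage growth factor, was at 124 ± 19.04 CPM in cDC2, 5.03 ± 3.70 CPM in type 1 cells and 506 ± 26.5 CPM in macrophages. Flt3, a choosing gene, was at 54.9 ± 18.8 CPM in cDC2 and 141 ± 31.9 CPM in type 1 cells.

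Markers of other cell types were read in the same sums. Of 14 monocyte markers 13 were detected, with Vcan at 0, and their summed level was 1098 to 1218 CPM in Con and 1020 to 1257 CPM in mA1. The mean was 1148 CPM, against 442 CPM in type 1 cells, 290 CPM in mature cells, 1913 CPM in C1q macrophages and 887 CPM in all other kept cells. All 10 alveolar macrophage markers were detected, at 870 to 887 CPM in Con and 624 to 1107 CPM in mA1, against 9515 CPM in all other kept cells. All 11 macrophage markers were detected, at 211 to 248 CPM in Con and 239 to 281 CPM in mA1, against 30026 CPM in C1q macrophages, and C1q itself is limited by the rule. The 6 neutrophil markers ran from 20.5 to 29.8 CPM in Con and from 2.36 to 417 CPM in mA1, and 1 cell of mA1 library 1 held 142 of its 148 UMIs of S100a9. The red blood cell markers, 4 of 5 detected with Alas2 at 0, were at 29.9 to 53.6 CPM in Con and 4.38 to 4.72 CPM in mA1. The B and plasma cell markers, 6 of 7 detected with Cd79a at 0 by the rule, were at 241 to 278 CPM in Con and 113 to 156 CPM in mA1. For the last 2 lists the groups did not overlap, and their part in the gene results below was not tested. T and NK markers, 9 of 10 detected with Cd3e at 0 by the rule, were at 18.7 to 245 CPM in Con and 37.8 to 137 CPM in mA1. All 10 epithelial markers were detected, at 168 to 235 CPM in Con and 166 to 180 CPM in mA1.

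Whether Malat1 activation went with more or fewer cDC2 cells was asked per tumour. Among kept cells with 1 hashtag, the shares were 0.766%, 0.766%, 1.35% and 1.40% in the 4 Con tumours and 0.730%, 0.8291%, 0.899% and 0.831% in the 4 mA1 tumours. The Con tumours above 1% were both of Con library 2, and the Con tumours of library 1 fell within the range of mA1. Counting error alone was wide, with 95% Wilson intervals from 0.465 to 1.26% for the Con tumour with the lowest share and from 0.932 to 2.09% for the one with the highest. The mean was 1.07 ± 0.352% in Con and 0.822 ± 0.0699% in mA1 (SD, n = 4 each), a difference of -0.248 percentage points (exact permutation test, two-sided, p = 0.371, adjusted p = 0.429 over 3 shares). Without Con library 2 the difference was 0.0564 percentage points, the other way. The smallest p that 4 against 4 allows is 0.0286. The tumours of a library share that library and had nearly equal shares, and with the 4 libraries as samples the difference was -0.231 (exact permutation test, p = 1, smallest possible 0.333). With every cell thinned to 2000 UMIs, which kept 18312 of 21828 cells and 110 cDC2 cells, it was -0.0253.

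Among dendritic cells, cDC2 took 18.3%, 19.4%, 37.98% and 41.8% in the Con tumours and 20.7%, 23.2%, 22.7% and 22.2% in the mA1 tumours. The denominator was cDC2, type 1 and mature cells as first set, and 227 of the 484 cells of that type 1 set had 4 or 5 of the 5 alveolar macrophage genes. With the narrower type 1 set, added after seeing the data, the shares were 27.8%, 32.7%, 50% and 59% in Con and 35.3%, 38.3%, 38.5% and 35.9% in mA1. With either set the tumours of Con library 2 had the highest shares and those of Con library 1 the lowest, with mA1 between them. The means differed by -7.16 percentage points with the first set (exact permutation test, two-sided, p = 0.429, n = 4 per group, adjusted p = 0.429). Without Con library 2 the difference was 3.36 percentage points, and with cells thinned to 2000 UMIs it was -2.74.

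**Figure D2:**
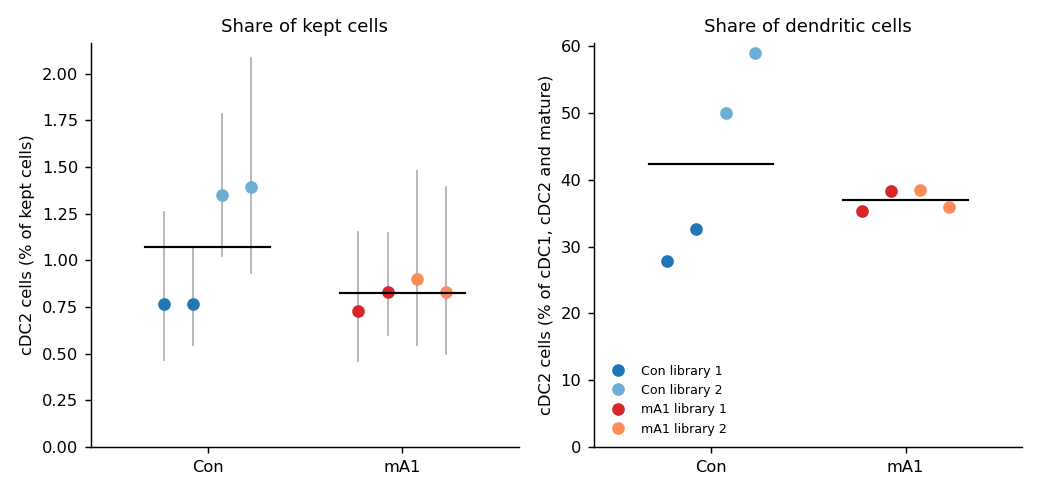
Share of cDC2 cells among kept cells (left, with 95% Wilson intervals in grey) and among dendritic cells with the narrower type 1 set (right), in percent. Each point is 1 tumour, coloured by library, and the line is the group mean. The 2 tumours of Con library 2 lie above the others in both panels.

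The cells were not uniform. Clustering of the 206 cells, without the choosing genes, gave 5 sub-clusters, which are described by their leading genes and given no names. The clustering drew on the 1000 most variable genes. Apart from the choosing genes, those named below could be among them, whether they lead or not, so their levels are no test.

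The first sub-cluster (57 cells) was led by Flrt3, S100a9, Cxcl2, Nr4a3 and S100a8. Cxcl2, a chemokine for neutrophils, was at 2027 CPM there and 252 CPM in the rest, and Il1b was at 5086 CPM against 994 CPM, with a UMI in 100% against 67.8% of cells. S100a9 was seen in 7.02% of these cells and 6.71% of the rest, so few cells carried it. Among genes that did not lead, Cd14 was at 246 CPM against 21.4 to 56.4 CPM in the other 4, and Nr4a1, an early response gene, at 400 CPM against 74.2 to 154 CPM. The 24 immediate early and dissociation genes together were at 20936 CPM, against 10623 to 15856 CPM in the others.

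The second sub-cluster (51 cells) was led by Lpl, Ccl6, Cd209b, Hba-a1 and Trf. Lpl, lipoprotein lipase, was seen in 7.84% of these cells and 9.68% of the rest, and Hba-a1, a globin, in 9.80% and 1.94%. Trf (transferrin) and Il1rl1 (the IL-33 receptor) were more widespread, in 78.4% and 49.0% of the cells against 61.9% and 19.4% of the rest. Il1b was lowest there, at 423 CPM.

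The third sub-cluster (46 cells) was led by Ccl24, Ifitm6, Plac8, Klf2 and Apoe. Ccl24 was seen in 6.52% of these cells and 1.88% of the rest, and Apoe in 13.04% and 8.75%, so few cells carried them. Plac8, a monocyte gene, was in 71.7% of its cells against 21.9% of the rest, and Lyz2 was at 1777 against 406 CPM. F13a1, a monocyte gene, had UMIs in 13.04% of these cells and in none of the other 160. Its 14 monocyte markers summed to 1888 CPM, against 1699 CPM in the fourth sub-cluster and 559 to 947 CPM in the other 3. Mgl2 was detected in 54.3% of its cells against 81.2 to 100% in the others, and Ccl17 in 19.6% against 63.9 to 94.7%.

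The fourth sub-cluster (36 cells) was led by genes that include Pi16, Timp1, Isg15 and Cd7. Isg15 was seen in 19.4% of these cells and 14.7% of the rest. Tcf4, a factor of plasmacytoid dendritic cells, was at 351 against 113 CPM, while Siglech, their surface marker, had UMIs in only 8.33% of the cells. Cd209a was detected in all 36 cells, at 1117 CPM. Of the 6 plasmacytoid markers the summed level was 47.0 CPM there and at most 18.02 CPM elsewhere.

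The fifth sub-cluster (16 cells) was led by Top2a, Pclaf, Birc5, Hist1h2ap and Stmn1, genes of DNA replication and mitosis. Of its 16 cells 14 met the fixed measure of cycling, which was 2 or more of Mki67, Top2a, Birc5, Cdk1, Ccna2 and Tpx2. It had the most UMIs per cell, with a median of 18167.

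Sub-cluster shares varied between libraries of a group. The first took 36% and 23.6% of the cells in Con libraries 1 and 2, and 25.5% and 27.6% in mA1 libraries 1 and 2. The second took 14%, 33.3%, 27.3% and 17.2% in that order, and the fourth 28%, 8.33%, 14.5% and 27.6%. In the fourth and second, Con library 1 was close to mA1 library 2 and not to Con library 2. The third took 10.0% and 25.0% in Con and 27.3% and 27.6% in mA1, and the fifth 12% and 9.72% in Con and 5.45% and 0% in mA1. For the third and the fifth the groups did not overlap (exact permutation test, two-sided, p = 0.333, which is the smallest that 2 against 2 allows, adjusted p = 0.833 over the 5). The differences were 9.93 and -8.13 percentage points. Without 1 library the third ranged from 2.43 (Con library 1) to 17.4 (Con library 2), and the fifth from -5.41 (mA1 library 2) to -10.9 (mA1 library 1).

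Cycling cells were 7 of 50 (14%) in Con library 1, 12 of 72 (16.7%) in Con library 2, 6 of 55 (10.9%) in mA1 library 1 and 0 of 29 in mA1 library 2. The count of 0 allows a share of up to 10.3%. The groups did not overlap, with a difference of -9.88 percentage points (exact permutation test, two-sided, p = 0.333, n = 2 per group, adjusted p = 0.429). By tumour the shares in Con ran from 10.2% to 30.4%, and the mA1 tumours had 11.1%, 11.1%, 0% and 0%. Both tumours of mA1 library 2 were at 0. The difference was -4.42 percentage points without that library, -15.3 without mA1 library 1 and -16.8 without the first tumour of Con library 2. With cells thinned to 2000 UMIs it was -1.84, and with at least 4 choosing markers -15.98.

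**Figure D3:**
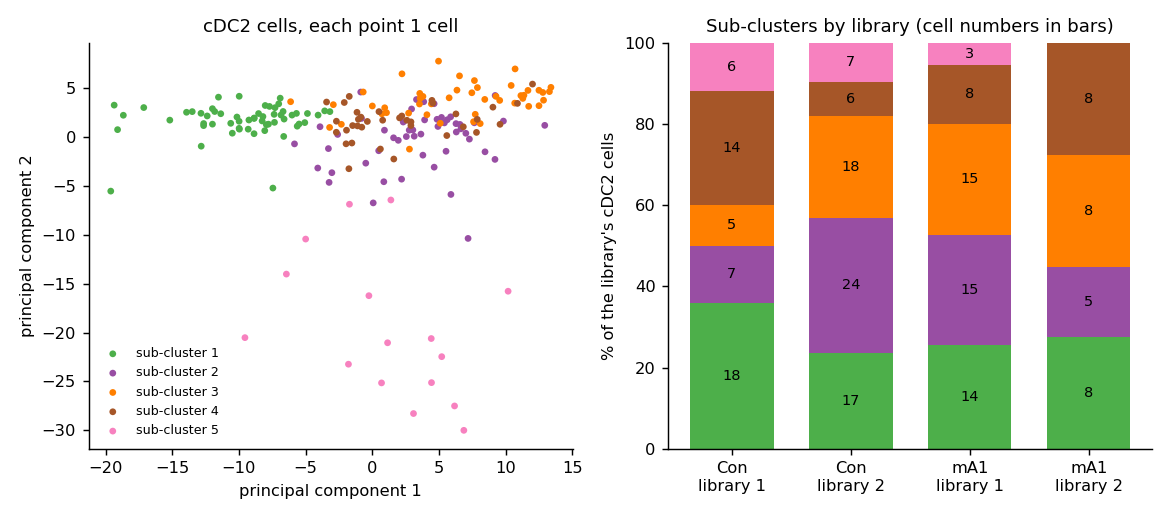
The 206 cDC2 cells on their first 2 principal components, coloured by sub-cluster (left), and the share of each sub-cluster in each library in percent, with cell numbers in the bars (right). The fifth sub-cluster lies apart on the second component and has no cell in mA1 library 2.

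Gene by gene, mA1 was compared with Con over the 4 libraries, since only 1 of the 4 mA1 tumours reached the 20 cDC2 cells required of a sample. The summed cDC2 cells held 535476 and 1007899 UMIs in Con libraries 1 and 2, and 685420 and 423357 in mA1 libraries 1 and 2. Of 5966 genes tested with edgeR's quasi-likelihood test, 0 were called at a Benjamini-Hochberg adjusted p of 0.05, which is 0.0%. At an unadjusted p of 0.05, 123 were higher in mA1 (2.06%) and 149 lower (2.5%). DESeq2 called 1 gene, Xist, and limma voom with the library as a block called 0. Leaving out a whole library left 1 library in a group, which was then assumed to vary like the pair in the other, and called 26 genes when Con library 1 was left out, 9 when Con library 2 was, 52 when mA1 library 1 was and 7 when mA1 library 2 was. Such calls come from 3 libraries. The values below describe these 4 libraries.

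Malat1, the target in the tumour cells, was at 10036 and 11566 CPM in the Con libraries and 9565 and 11676 CPM in the mA1 libraries. The groups overlapped. The log2 fold change of mA1 over Con was 0.03 (SE 0.15, adjusted p = 0.996, edgeR).

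The genes with the smallest p above Con fell into 2 kinds. Apoe, a lipid carrier made by macrophages, had 8 and 6 UMIs in Con and 35 and 19 in mA1, or 14.9, 5.95, 51.1 and 44.9 CPM. The groups did not overlap, but 29 of the 35 UMIs of mA1 library 1 came from 1 cell and 17 of the 19 of mA1 library 2 from another. The log2 fold change was 2.40 (SE 0.46, adjusted p = 0.188, edgeR). In C1q macrophages Apoe was at 14592 ± 6176 CPM. Isg15, an interferon-induced ubiquitin-like protein, was at 14.9 and 22.8 CPM in Con and 48.1 and 102 CPM in mA1, a log2 fold change of 1.90 (SE 0.40, adjusted p = 0.526, edgeR). Again 24 of 33 and 28 of 43 UMIs in the mA1 libraries came from 1 cell each. Isg15 was the gene called in the fit with the replicate block (adjusted p = 0.0467), and leaving out Con library 1, Con library 2 or mA1 library 1 called it too. Apoe was called when Con library 1 or either mA1 library was left out. Ly6a (Sca-1) had all 13 of its UMIs in mA1 library 1 in 1 cell, but 17 UMIs in 7 of 29 cells of mA1 library 2, with 6 in the top cell. Fn1 (fibronectin) had 12 of 22 UMIs of mA1 library 1 in 1 cell.

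The other kind was spread over many cells. D16Ertd472e was at 37.3 and 34.7 CPM in Con and 72.9 and 77.9 CPM in mA1, and had UMIs in 16 and 24 cells of the Con libraries and 28 and 14 cells of the mA1 libraries. Its log2 fold change was 1.11 (SE 0.29, adjusted p = 0.857, edgeR). Hat1, a histone acetyltransferase, was at 33.6 and 52.6 CPM in Con and 87.5 and 77.9 CPM in mA1, and Pqlc1 at 44.8 and 50.6 against 84.6 and 94.5 CPM. Msrb1, a methionine sulfoxide reductase, was at 183 and 159 against 273 and 229 CPM. Apbb2 and Zeb2os, an antisense transcript at Zeb2 whose reads may not be told from those of Zeb2, completed the 10. In all of these the mA1 libraries lay above both Con libraries, as did 1 group above the other for 32.9% of all genes tested.

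The genes with the smallest p below Con were mostly spread over cells. Clu (clusterin, a secreted chaperone) had UMIs in 10 of 50 and 33 of 72 Con cells and in 7 of 55 and 3 of 29 mA1 cells, with no cell above 4 UMIs. Its levels were 22.4 and 53.6 CPM in Con and 10.2 and 7.09 CPM in mA1, a log2 fold change of -2.11 (SE 0.52, adjusted p = 0.857, edgeR). In the C1q macrophages of the same libraries Clu was at 464 and 53.3 CPM in Con and 22.2 and 11.96 CPM in mA1. In the mature cells it was at 405 and 2486 CPM in Con and 2595 and 2697 CPM in mA1, the other way. Rgs1, a brake on chemokine receptor signalling, was at 459 and 436 CPM in Con and 268 and 262 CPM in mA1, a log2 fold change of -0.70 (SE 0.17, adjusted p = 0.857, edgeR). In Con library 2, 1 cell held 97 of its 439 UMIs. By tumour the groups overlapped, with Rgs1 at 304 to 541 CPM in Con and 93.1 to 355 CPM in mA1. Clu overlapped too, at 13.8 to 58.1 CPM and 4.41 to 22.2 CPM. Rgs1 was called when 4 of the 5 choosing markers were required (log2 fold change -1.57, adjusted p = 0.0235). Bcl11a, a lymphoid and plasmacytoid transcription factor that was also among the genes highest in cDC2 over the other classes, was at 136 and 134 CPM in Con and 65.7 and 77.9 CPM in mA1. Its log2 fold change was -0.88 (SE 0.24, adjusted p = 0.857, edgeR), and 28 of 50, 50 of 72, 27 of 55 and 14 of 29 cells had a UMI.

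Trim25, 2900060B14Rik, Ppp1r14a and Dse were at 22.8 to 35.5 CPM in the Con libraries and 4.72 to 10.2 CPM in the mA1 libraries. Aurkb, Hist1h2ae and Hist1h1d, a mitotic kinase and 2 histones of dividing cells, completed the 10. Hist1h2ae was at 69.1 and 40.7 CPM in Con and 24.8 and 9.45 CPM in mA1, beside the cycling shares above, and the part of those shares in it was not tested. For Hist1h2ae, 15 of 41 UMIs of Con library 2 and 15 of 17 of mA1 library 1 came from 1 cell each. For 2900060B14Rik, 15 of 32 UMIs of Con library 2 came from 1 cell.

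**Figure D4:**
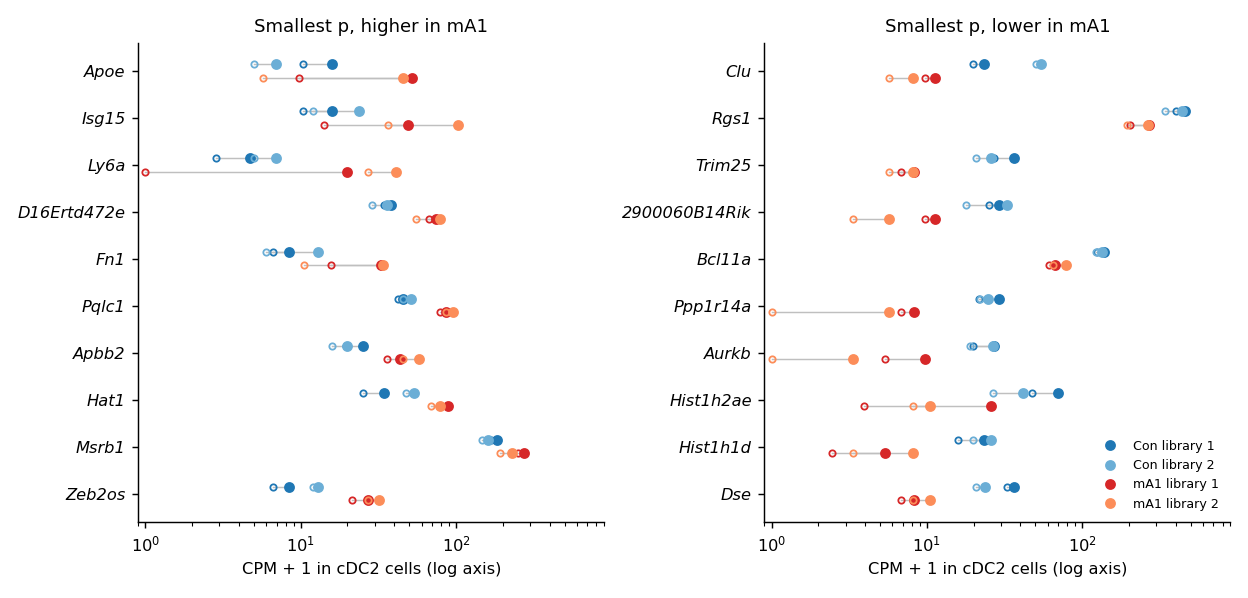
Levels in cDC2 cells (CPM + 1, log axis) of the 10 genes of smallest p above and below Con. Filled points are the summed cells of 1 library, and open points joined to them are the same library without the UMIs of the cell that held most. For Apoe, Isg15 and Ly6a the open points of mA1 library 1 lie far to the left of the filled points.

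By function, no list had a called member. Over all genes tested, 50.6% had a positive log2 fold change and the median was 0.00. MHC class II presentation was even, with 9 of 14 members positive and a median of 0.08. H2-DMa and H2-DMb1 had the smallest p there, at log2 fold changes of 0.25 and 0.23 with adjusted p of 0.996 (edgeR). Of the MHC class I list 5 of 13 were positive, with a median of -0.14, and H2-T23 was at 164 and 230 CPM in Con and 159 and 104 CPM in mA1.

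Of the co-stimulation genes 5 of 11 were positive, median -0.09. Cd80, a ligand of CD28, was at 95.2 and 84.3 CPM in Con and 67.1 and 28.3 CPM in mA1, and Cd83 at 351 and 213 CPM against 203 and 165 CPM. The 7 mature dendritic cell markers that passed the filter all had negative values, median -0.31, and Ccr7, the receptor that guides dendritic cells to lymph nodes, was at 26.1 and 46.6 CPM against 23.3 and 0 CPM. The rule limits 5 of the 12 markers of that list, Ccr7 among them. The 6 chemokine receptors tested were all negative, median -0.23, with Cxcr4 at 41.1 and 78.4 CPM against 39.4 and 26.0 CPM and Gpr183 (a receptor for oxysterols) at 196 and 125 CPM against 111 and 92.1 CPM. Among chemokines 6 of 10 were positive, median 0.25, and Ccl17 was at 2925 and 2063 CPM in Con and 3255 and 3220 CPM in mA1 (log2 fold change 0.43, SE 0.17, adjusted p = 0.996, edgeR). Ccl6 was at 166 and 216 CPM in Con and 614 and 217 CPM in mA1, and 1 cell held 285 of the 421 UMIs of mA1 library 1.

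Among cDC2 genes outside the choosing set, 8 of 17 were positive, median -0.07. Klf4, a factor needed for a subset of cDC2, was at 181 and 206 CPM in Con and 160 and 92.1 CPM in mA1, and Id2, which restrains other lineages, at 471 and 495 CPM against 338 and 390 CPM. Irf8 was at 71.0 and 22.8 CPM in Con and 93.4 and 130 CPM in mA1 (log2 fold change 1.42, SE 0.51, adjusted p = 0.996, edgeR). Of the monocyte-derived and type 3 genes 7 of 10 were positive, median 0.17. The Fc receptors Fcgr1 and Fcgr3 were at 16.8 and 11.9 against 21.9 and 47.2 CPM, and at 116 and 93.3 against 153 and 149 CPM. Of the interferon list 6 of 7 were positive, median 0.51, with Isg15, whose UMIs in mA1 lay mostly in 2 cells, among them.

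Cell cycle genes had a median of -0.34, with 2 of 18 positive. Mki67 was at 106 and 72.4 CPM in Con and 77.3 and 33.1 CPM in mA1. Cenpf was at 33.6 and 16.9 CPM in Con and 10.2 and 0 CPM in mA1, and Hmgb2 at 523 and 556 against 397 and 144 CPM. In each of these genes mA1 library 2, with no cycling cell, was lowest. Of the ribosomal proteins 19 of 20 were positive, median 0.14, and of the respiratory chain 17 of 18, median 0.12. These shifts were small: Rpl3 was at 1950 and 1714 CPM in Con and 1990 and 2374 CPM in mA1. Of the endocytosis and lysosome list 12 of 13 were positive, median 0.25, with Mrc1 at 67.2 and 68.5 CPM against 118 and 66.1 CPM and Cd68, the negative member, at 166 and 209 CPM against 143 and 142 CPM. Immediate early genes were split, 12 of 24 positive with a median of 0.00. Egr1 was at 321 and 266 CPM in Con and 357 and 475 CPM in mA1, and Zfp36, which degrades inflammatory mRNAs, at 997 and 919 CPM against 791 and 409 CPM. Of NF-kB genes 10 of 18 were positive, median 0.08, and Tnfaip3 (A20, an inhibitor of the pathway) was at 120 and 134 CPM against 94.8 and 47.2 CPM. Of glycolysis and hypoxia genes 10 of 14 were positive, median 0.15, and Eno1 was at 273 and 274 CPM against 338 and 409 CPM.

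**Figure D5:**
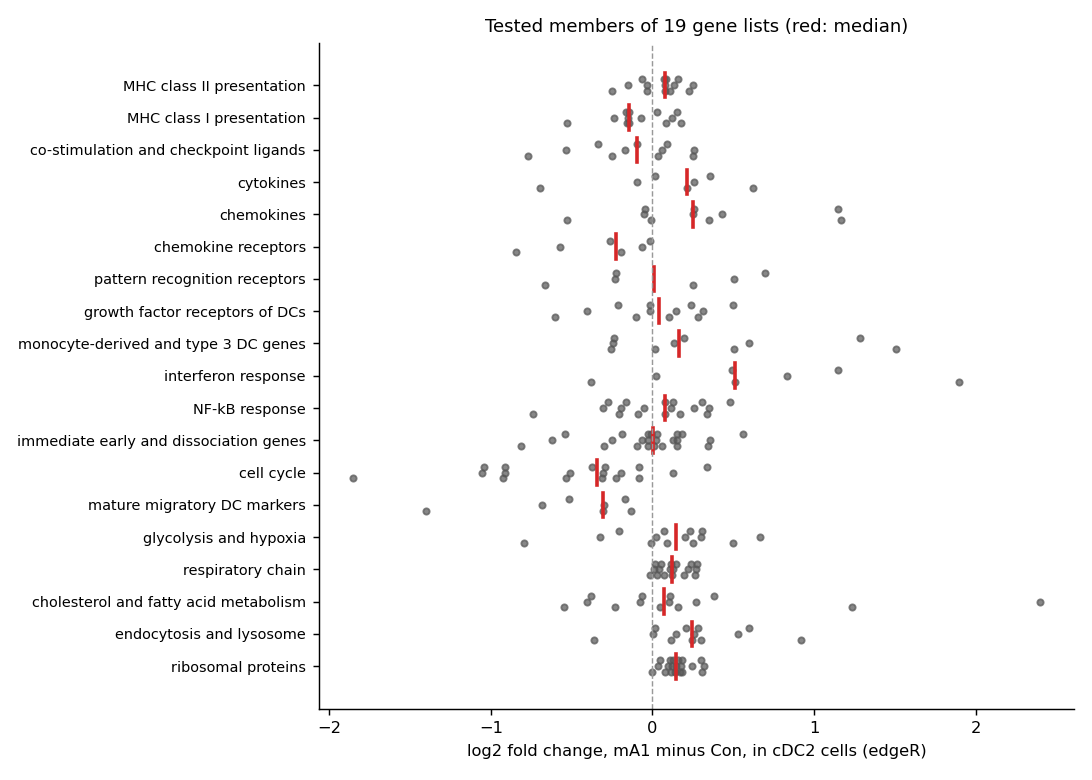
Log2 fold change of mA1 over Con in cDC2 cells (edgeR) for the tested members of 19 gene lists. Each grey point is a gene and the red line the median of its list. Medians lie between -0.34 (cell cycle) and 0.51 (interferon response).

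Whether mA1 and Con differed in cDC2 cells in another way than in neighbouring classes was tested by the difference of the log2 fold changes, within libraries. Against the type 1 set as first fixed, 7 of 9079 genes were called (0.0771%), and against the narrower set 8 of 6698 (0.119%), 1 of them the choosing gene Cd209a. Against C1q macrophages 3 of 9339 were called (0.0321%). Without a whole library the counts were 18, 0, 51 and 11 against the first type 1 set and 3, 9, 8 and 5 against macrophages, for Con library 1, Con library 2, mA1 library 1 and mA1 library 2 in turn.

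Many of these calls rest on few cells. Hba-a1, Hba-a2 and Hbb-bs, globins of red blood cells, had at most 5 cDC2 cells with a UMI in a library. Gzma, a granule protease of NK cells, had UMIs in 8 cells of Con library 2 and 3 of mA1 library 1, and 56 of 64 and 25 of 28 UMIs came from 1 cell each. Ccl5 had 58 of 114 and 40 of 50 UMIs there in 1 cell. Ccl24 was at 7.47 and 91.3 CPM in Con and 0 in mA1, with 68 of 92 UMIs of Con library 2 in 1 cell. Ifi211 had UMIs in 0 and 1 cells of Con and 3 and 2 of mA1. In the narrower comparison Ccl6, the choosing gene Cd209a and S100a4 had UMIs in more than 20 cells of each library. For Ccl6, though, 1 cell held 285 of the 421 UMIs of mA1 library 1. Without that cell's UMIs the library was at 198 CPM, between the Con libraries at 166 and 216 CPM. S100a4, a calcium-binding protein, was at 3784 and 2939 CPM in Con and 3604 and 3517 CPM in mA1 in cDC2 cells, found in nearly every cell, while type 1 cells had 108 and 50.5 CPM in Con and 23.3 and 36.6 CPM in mA1. Its difference was 1.499 on the log2 scale (SE 0.30, adjusted p = 0.0386, edgeR). In cDC2 cells the groups overlapped, and in type 1 cells, where the level was low, they did not. Against macrophages the difference for Apoe was 2.09 (SE 0.30, adjusted p = 0.0229, edgeR) and for Fn1 2.23 (SE 0.36, adjusted p = 0.0369, edgeR), and for both the cDC2 values are those of few cells.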

How the data were processed

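Single cells of 8 tumours were read in 4 libraries with the 10x 3′ chemistry. The authors made the deposited counts of UMIs per gene and of hashtag barcodes per cell with Cell Ranger 6.0.1 on mm10, per the submitters' processing notes, and the values are raw counts. Kept cells had 500 or more UMIs, 250 or more genes and no more than 15% of UMIs from mitochondrial genes. The rule for the cells, the gene lists and the tests were chosen with earlier results of these data known. Hashtags were called with a mixture of 2 components, and cells with both hashtags were left out of sums.

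UMIs of the 206 cells were summed per library and tested with edgeR 4.0.16 (quasi-likelihood, TMM, filter on low counts, two-sided, Benjamini-Hochberg over all genes tested). Libraries stood in for tumours because only 3 Con tumours and 1 mA1 tumour had at least 20 of the cells. Differences between cell classes were tested with the library as a block. Shares were tested by exact permutation, also with each cell thinned to 2000 UMIs. DESeq2 1.42.0 and limma 3.58.1 gave alternatives. Clusters came from the Leiden method in leidenalg 0.10.2 (1000 variable genes, 20 components, resolution 0.5). The scripts were tested on simulated data.

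Genes were named by rule: the 10 of smallest p in each direction, up to 4 of smallest p in each list, the markers, Malat1 and the 5 leading genes of each sub-cluster. Some genes that the rule names are not reported here. Some further genes with levels, such as those highest over the other classes, were chosen after their values were seen. The narrower set of type 1 cells was also added after seeing the data. Scrublet, run in scanpy 1.11.5, called 1 of the cells as a doublet. It called 0 of 5808 kept cells in Con library 2, so it did not work there. Of the kept barcodes, 912 occurred in more than 1 library. Intervals and limits for a count of 0 cover counting error only.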

Additional observations from a re-analysis of the deposited data

Results flagged for a closer look

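In 17 tests, the choosing gene Cd209a left aside, the difference between mA1 and Con in cDC2 cells differed from that in another class (edgeR, group by class term, adjusted p under 0.05). All values are log2 differences, cDC2 minus the other class. Against the first type 1 set they were -7.29 for Hba-a1, -7.85 for Hba-a2, -7.04 for Hbb-bs, 5.30 for S100a9, 4.09 for Gzma, 5.20 for Ifi211 and 2.80 for Ccl5. The 3 globins belong to red blood cells, and in mA1 library 1 they were at 46.5 to 209 CPM in the type 1 set and at most 1.46 CPM in cDC2 cells.

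Against the narrower type 1 set they were 3.99 for Ccl5, 1.69 for Ccl6, 4.62 for Ifi211, 1.499 for S100a4, -4.38 for Sftpb, 4.08 for Gzma and 3.56 for Apoe. Sftpb, a surfactant gene of epithelium, was at 353 CPM in the type 1 cells of mA1 library 2 and at most 17.5 CPM in those of the other libraries, and at most 8.93 CPM in cDC2 cells. Ifi211 was higher in type 1 cells than in cDC2 cells in all 4 libraries.

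Against C1q macrophages they were 2.09 for Apoe, -8.42 for Ccl24 and 2.23 for Fn1. In macrophages Fn1 was at 570 and 597 CPM in Con and 418 and 383 CPM in mA1. The part of red blood, epithelial and single-cell signal in these values was not tested.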

How the results depend on the processing

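The count of 0 called genes in cDC2 cells became 1 with DESeq2, 1 with at least 4 choosing markers, 1 with the replicate block, 15 without a filter on low counts, 1 without Con library 1 tumour 1 and 4 without mA1 library 1 tumour 2. It ranged from 7 to 52 when a whole library was left out, with 26 and 9 for Con libraries 1 and 2, and 52 and 7 for mA1 libraries 1 and 2. Same-numbered libraries share only a number: their deviations correlated at -0.0051, so the replicate block (1 gene, Isg15) pairs nothing known. The 7 differences from type 1 cells became 30 without a filter, 1 and 0 without tumour 1 or 2 of Con library 2, 4 and 13 without tumour 1 or 2 of mA1 library 1, 4 without tumour 1 of mA1 library 2, and 0 to 51 without a library. The 3 differences from macrophages became 20 without a filter, 7 without tumour 2 of Con library 1, 0 and 9 without tumour 1 or 2 of Con library 2, 1 and 0 without tumour 1 or 2 of mA1 library 1, and 3 to 9 without a library. Leaving out samples leaves fewer of them; otherwise the cause was not tested.

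Differences of shares, in percentage points, ranged without a library from -0.552 to 0.0564 of kept cells, -17.7 to 3.36 of dendritic cells, -9.48 to 2.91 for the first sub-cluster, -11.1 to 8.26 for the second and -6.93 to 12.7 for the fourth. The second was 3.61 and the fourth -3.62 without mA1 library 2. Without single tumours the first was 2.21 (Con library 1 tumour 2), the second 6.01 (mA1 library 1 tumour 2) and 0.684 (mA1 library 2 tumour 1), the third -0.292 (mA1 library 2 tumour 1) and the fourth -1.85 (Con library 1 tumour 2) and -4.23 (mA1 library 2 tumour 2). In all, 113 of 126 alternative share values kept their direction and 13 reversed. No exact permutation test of 2 libraries against 2 or fewer can give p under 0.333. For such tests the side of the threshold was fixed in advance, as it was for shares by tumour without a whole library.

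Malat1, at 0.03, was -0.22 with at least 4 markers, -0.0578, -0.0017 and -0.0596 without Con library 2 tumour 2, mA1 library 1 tumour 1 or mA1 library 2 tumour 2, and -0.165 to 0.203 without a library, -0.0575 without Con library 1. Cd83 was 0.0204 without Con library 1 tumour 2. Of 1319 alternative values for 56 named genes, 1279 kept direction and side, 33 passed the threshold and 7 changed sign. At equal depth (2000 UMIs a cell) the share differences were smaller: -0.0253, -2.74 and -1.84 percentage points for kept cells, dendritic cells and cycling. Thinning left 110 cDC2 cells, and fewer choosing and cycling genes are detected in a thinned cell. The thinned differences are therefore not on the same scale as those at full depth, and the part of depth in them was not tested.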
